A study of Rattus norvegicus with 9 samples.

Results

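The 9 genes described here encode the transcription factors best known for setting and keeping hepatocyte identity, namely Hnf4a, Foxa1, Foxa2, Foxa3, Cebpa, Cebpb, Nr1i2, Nr1i3 and Onecut1. They were picked by symbol, as 9 of the 32883 genes in the deposited table. In the livers of rats given diethylnitrosamine (DEN), 7 of the 9 genes were lower than in normal control rats, by 2.12-fold to 4.25-fold, where 20.5% of all genes tested were called lower and 45.8% in either direction. In the livers of rats given DEN together with PZH, Hnf4a, Foxa1, Foxa3 and Cebpa were higher than in the DEN model, by 2.16-fold to 3.56-fold, where 8.72% of all genes tested were called higher. Cebpb was 3.19-fold below the normal control level in the PZH rats. The calls of Foxa1 and Onecut1 in the DEN model and those of Hnf4a and Foxa1 under PZH were lost when libraries were scaled by their totals, and all 4 calls under PZH were lost without rat M13 or without rat M24 of the DEN model.

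Liver mRNA was sequenced from 9 male Sprague-Dawley rats, 3 in each of 3 groups, with 1 library for each rat. The normal control rats (N1, N3 and N12) were kept on a normal diet. The DEN model rats (M13, M17 and M24) received the liver carcinogen DEN, listed as 0.01% into the peritoneum every week over 16 weeks. The PZH administration rats (G27, G28 and G42) received the same DEN and also PZH (Pien-Tze-Huang), a traditional Chinese patent medicine. The study used a low and a high dose of PZH and collected livers at several weeks, up to week 16, after a fast. Which dose and which week the sequenced rats had is not given in the sources used here. Their DEN exposure may therefore have been shorter than the 16 weeks listed. The groups were read from the first letter of the rats' titles, because the tag for treatment names PZH both for G rats and for M rats. The comparisons ask which genes the DEN livers lost or gained, and which of these differed again under PZH.

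Hepatocyte identity rests on a small set of transcription factors that bind one another's genes as well as the genes of liver metabolism. Foxa proteins are pioneer factors that open chromatin, Hnf4a and the C/EBP proteins then keep the genes of blood protein, lipid and glucose metabolism active, and Nr1i2 and Nr1i3 are nuclear receptors that switch on drug metabolism when foreign chemicals arrive. Loss of these factors is a known feature of dedifferentiated hepatocytes and liver tumors.

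Promoters of members are shown because the factors control one another, so the letters just before the start of each gene are where such links are usually sought. RefSeq sequences of rat genome build GRCr8 were matched by symbol for 7 members, with 8 start sites since Hnf4a has a pair of starts 35616 bases apart. Each line gives the 250 bases before the start, from 5′ to 3′ on the strand of the gene. The windows of Nr1i2 and Nr1i3 were searched too but are not printed. Capitals mark exact matches to 6 motifs searched on both strands, namely an HNF1-type motif (GTTA and TTAA with NTNN between them), an HNF6-type motif (ATCAATA, the site type of Onecut1), a forkhead-type motif (TGTTTNC, the site type of Foxa), a C/EBP-type motif (TTGCNNAA), an HNF4-type motif (CAAAGTCCA) and a CRE core (TGACG), and to a TATA box (TATAAA) searched on the given strand. The motifs were chosen with these sequences in view, and a match describes letters only.
Hnf4a downstream start, chr3:172641586-172641835, + strand: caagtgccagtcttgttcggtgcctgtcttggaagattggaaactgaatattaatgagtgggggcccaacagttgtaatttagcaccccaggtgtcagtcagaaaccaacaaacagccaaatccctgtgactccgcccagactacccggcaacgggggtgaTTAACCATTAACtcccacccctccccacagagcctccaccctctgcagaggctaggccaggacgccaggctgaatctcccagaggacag
Hnf4a upstream start, chr3:172605970-172606219, + strand: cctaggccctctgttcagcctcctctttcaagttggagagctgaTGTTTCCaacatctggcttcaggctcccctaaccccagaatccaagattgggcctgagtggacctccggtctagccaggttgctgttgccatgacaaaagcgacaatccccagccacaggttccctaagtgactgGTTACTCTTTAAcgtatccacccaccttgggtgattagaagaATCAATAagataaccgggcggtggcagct
Foxa2, chr3:155927509-155927758, - strand: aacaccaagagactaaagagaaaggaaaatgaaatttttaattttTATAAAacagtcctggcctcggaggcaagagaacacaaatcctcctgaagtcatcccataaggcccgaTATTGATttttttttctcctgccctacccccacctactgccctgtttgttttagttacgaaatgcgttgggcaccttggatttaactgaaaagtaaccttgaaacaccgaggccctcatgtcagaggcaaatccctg
Foxa3, chr1:87799486-87799735, - strand: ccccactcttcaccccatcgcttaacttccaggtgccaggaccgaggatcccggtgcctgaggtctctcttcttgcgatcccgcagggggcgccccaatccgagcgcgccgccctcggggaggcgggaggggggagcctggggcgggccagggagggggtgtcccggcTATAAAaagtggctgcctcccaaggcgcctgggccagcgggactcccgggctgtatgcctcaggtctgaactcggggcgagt
Cebpa, chr1:96896334-96896583, + strand: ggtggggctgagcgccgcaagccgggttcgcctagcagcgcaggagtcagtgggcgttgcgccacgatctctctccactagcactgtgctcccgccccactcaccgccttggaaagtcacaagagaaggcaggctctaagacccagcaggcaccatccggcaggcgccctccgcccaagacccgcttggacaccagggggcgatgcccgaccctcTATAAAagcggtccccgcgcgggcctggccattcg
Cebpb, chr3:176816755-176817004, + strand: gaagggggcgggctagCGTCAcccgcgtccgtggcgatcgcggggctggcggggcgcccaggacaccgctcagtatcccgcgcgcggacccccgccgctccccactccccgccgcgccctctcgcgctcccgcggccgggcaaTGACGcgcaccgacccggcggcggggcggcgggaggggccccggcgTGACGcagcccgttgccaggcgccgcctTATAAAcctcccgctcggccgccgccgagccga

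Both Hnf4a windows held the HNF1-type motif, at position -71 of the upstream and, on the opposite strand, -89 of the downstream window, counted back from the start, and this motif was present in 0.218% of all 33469 promoter windows of the same length. The upstream window of Hnf4a also held an HNF6-type motif at -29 and a forkhead-type motif at -206. The Foxa2 window held an HNF6-type motif at -137 on the opposite strand, and 1.93% of all windows hold one. The Cebpb window held 3 CRE cores, at -234, -107 and -61, where 18.2% of all windows hold at least 1. The letters TATAAA stood at -35 in Cebpa, at -33 in Cebpb, at -82 in Foxa3 and at -205 in Foxa2. They occur at any position in 8.06% of all windows, and whether they act as a TATA box was not tested. Nr1i3 had a forkhead-type motif at -7, a motif found in 18.3% of windows. None of the 8 member windows held the C/EBP-type or the HNF4-type letters, which occur in 9.22% and 0.338% of all windows. GC content ran from 42.8% in Foxa2 to 80.0% in Cebpb. The deposited counts are 1 value for each gene, so transcripts from the 2 starts of Hnf4a were not told apart.

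Levels are given as CPM, counts scaled to a common library size with TMM factors, a scaling that assumes most genes do not change. Total counts per rat ran from 14922973 to 27161496, the largest being G27, and all 9 members had at least 93 counts in every rat. A floor of 3 counts was 0.125 to 0.252 CPM. The TMM factors differed between the groups, from 0.731 to 0.799 in normal control, from 1.21 to 1.58 in DEN model and from 0.863 to 0.941 in PZH administration rats. Scaling by library totals instead therefore moved the median change over all genes, on the log2 scale, by 0.86 in DEN model against normal control, by -0.67 in PZH administration against DEN model and by 0.23 in PZH administration against normal control. Each difference below is relative to that choice, and a member whose direction or call depends on it is named with its value on library totals. Of the genes called in DEN model against normal control, 3612 were higher and 2917 lower under TMM, and 8126 higher and 958 lower with library totals. In PZH administration against DEN model the split was 1245 higher and 1477 lower under TMM and 556 higher and 5696 lower with library totals. The numbers for PZH administration against normal control were 543 and 153 under TMM and 818 and 91 with library totals.

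Marker genes of the cell types of liver also differed between the groups. Beside the counts of markers called, 20.5% of all genes tested were lower and 25.3% higher in the DEN model. Under PZH against the DEN model 8.72% were higher and 10.3% lower. The summed CPM of 8 hepatocyte markers was 161390 to 176659 in normal control, 33880 to 79648 in DEN model and 131385 to 174924 in PZH administration rats, with none at 0, and 3 of the 8 fell in the DEN model (Alb, Ttr and Ass1). This count was 7 by DESeq2 and 7 without M17, 2 without N1 and 1 without any one of the other rats, and under PZH against the DEN model 1 hepatocyte marker was called higher, but 7 without M17. Of these 8 markers 7 also stand in the target lists described further on. The 6 cholangiocyte and ductular markers summed to 13.4 to 21.1, 235 to 756 and 80.9 to 108 CPM in the same order of groups, and all 6 rose in the DEN model, fell under PZH against the DEN model and stayed above normal control. The 8 stellate cell and myofibroblast markers summed to 267 to 376, 1145 to 3365 and 654 to 783 CPM, with 7 higher in the DEN model and 5 lower under PZH than in the DEN model. Under PZH against the DEN model, 2 ductular markers were called lower without M13, M24 or G42, and the stellate cell markers called lower were 1 without M13 or G28, 3 without G27 or G42 and 4 without M24. In bulk liver, fewer hepatocytes and less RNA of a gene in each hepatocyte cannot be told apart, and the part of these markers in the results was not tested.

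Markers of other cells moved less uniformly. The 6 macrophage markers summed to 371 to 799, 327 to 449 and 196 to 512 CPM, with 2 lower in the DEN model (Clec4f and Marco), and 1 without M13, M24 or N12. The 6 lymphocyte markers summed to 24.9 to 46.8, 78.7 to 118 and 37.7 to 45.3 CPM, with 3 of 5 tested higher in the DEN model, and 1 without N1 or N3. The 5 endothelial markers in the table summed to 333 to 409, 163 to 324 and 267 to 389 CPM, with 3 lower and 1 higher in the DEN model, and 1 lower without N1. Of 5 gut epithelium markers in the table, 3 were tested and 2 were higher in the DEN model (Vil1 and Tff3). Cdx1 was at 0 in all normal control rats and both Cdx1 and Cdx2 were at 0 in all PZH administration rats. With library totals 3 macrophage markers were higher and 1 lower in the DEN model, and 1 endothelial marker was higher and 1 lower. The gut markers summed to 190 to 213, 17.6 to 332 and 28.9 to 121 CPM. On average most of this sum in each group was Cdh17, the gut marker tested and not called. Vil1 and Tff3 had means of 0.230 and 0.427 CPM in normal control and 16.3 and 18.8 CPM in the DEN model.

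Per transcript length, as the deposited FPKM values give it, the members formed a high and a low tier in every group. In normal control liver Cebpb stood highest at 219 ± 80.8 FPKM (mean ± SD, n = 3), followed by Hnf4a at 133 ± 19.9, Cebpa at 105 ± 13.2 and Nr1i2 at 80.3 ± 14.5. The other 5 genes lay far lower, between 17.5 ± 5.34 FPKM for Foxa3 and 6.09 ± 1.79 for Foxa2, and each overlapped with its neighbour in the order. Hnf4a and Cebpa overlapped too, whereas Cebpb stood apart from Hnf4a and Nr1i2 stood apart from Cebpa and from Foxa3. Among the 17573 genes with an FPKM above 0 in normal control liver, Cebpb was at percentile 98.3 and Foxa2 at 66.9.

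The order changed with the group. In DEN model liver the top tier was again Cebpb (100.1 ± 19.5 FPKM), Hnf4a (75.7 ± 12.9), Cebpa (57.8 ± 3.99) and Nr1i2 (43.8 ± 14.2), with the ranges of Cebpb and Hnf4a and those of Cebpa and Nr1i2 overlapping. Foxa2 led the low tier there at 11.3 ± 0.559 FPKM, and Onecut1 was last at 6.46 ± 0.383, each step in between overlapping. In PZH administration liver Hnf4a was first at 105 ± 2.09 FPKM, and it overlapped with Cebpa (90.0 ± 17.9), which overlapped with Cebpb (79.7 ± 15.9). Nr1i2 at 52.5 ± 11.1 FPKM stood apart from both its neighbours, and the 5 low genes overlapped in a row from Foxa3 (16.4 ± 3.43) to Onecut1 (8.53 ± 7.74).

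**Figure D1:**
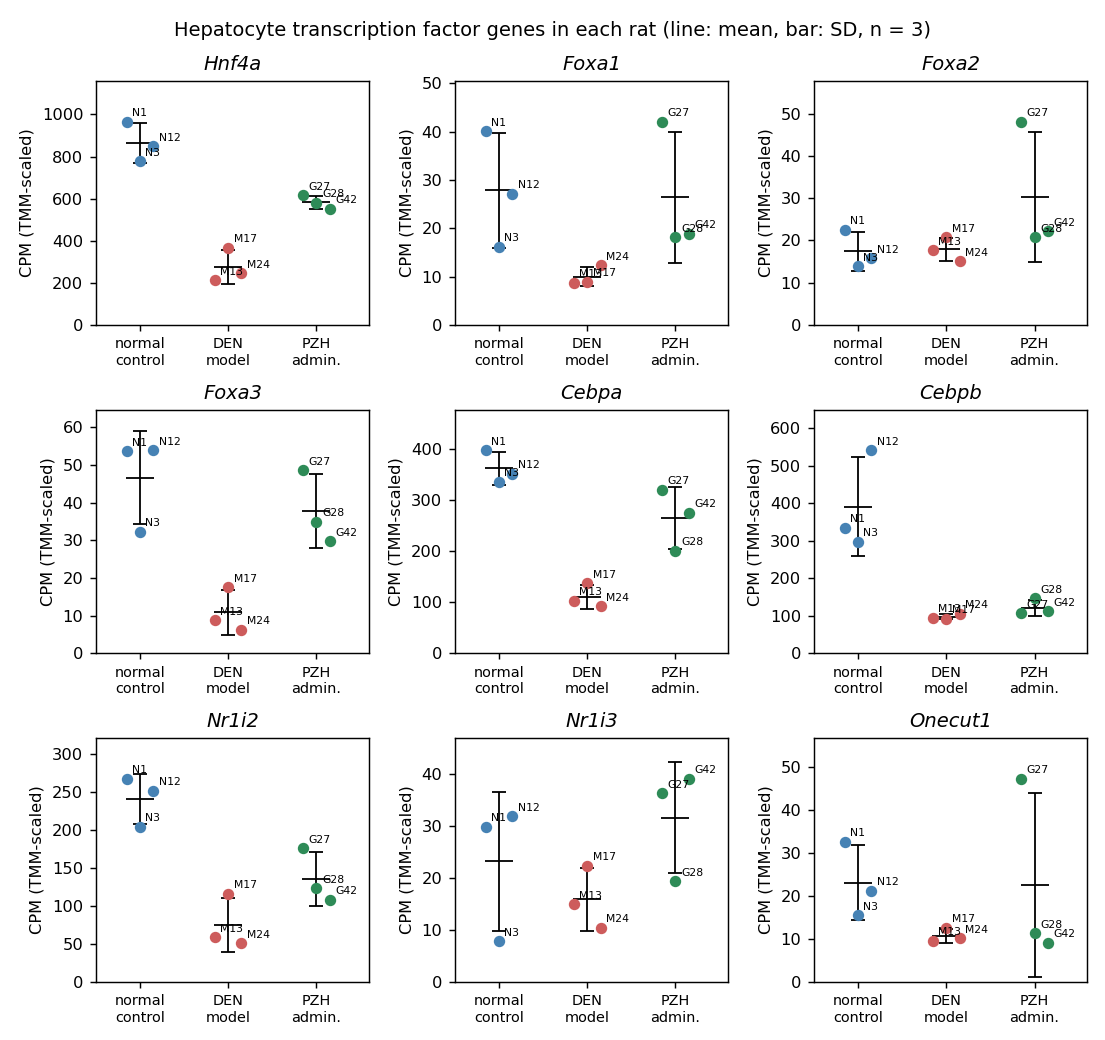
Level of each of the 9 genes in every rat, in TMM-scaled CPM on linear axes that start at 0. Points are single rats with their names, the short line is the group mean and the bar the SD (n = 3). Hnf4a lies between 212 and 366 CPM in DEN model rats and at 552 or above in all others, while Cebpb lies between 92.4 and 146 CPM in all DEN model and PZH administration rats.

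Hnf4a encodes a nuclear receptor that binds DNA as a pair with itself and drives many genes of lipoprotein, clotting factor and glucose metabolism (gene at chromosome 3, 159902441 to 159965003 in the coordinates of the deposited table, whose build is not given in the sources used here). In normal control rats its level was 966 CPM in N1, 777 in N3 and 848 in N12. The DEN model rats had 212 CPM in M13, 366 in M17 and 244 in M24, and the PZH administration rats had 615 in G27, 581 in G28 and 552 in G42. The 3 groups did not overlap, with the PZH rats between the other groups. Hnf4a fell in the DEN model by 1.64 on the log2 scale (SE 0.29, edgeR adjusted p = 0.0024), which is 3.11-fold lower. It rose under PZH against the DEN model by 1.11 on the log2 scale (SE 0.27, edgeR adjusted p = 0.026). With library totals this second difference was 0.47 and not called. The difference of PZH administration from normal control was -0.56 (95% interval -0.99 to -0.13) and did not pass the test (edgeR adjusted p = 0.15), whereas DESeq2 called it lower.

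Foxa3, a forkhead factor of the adult hepatocyte, had the largest fold change of the members in the DEN model (chromosome 1, 79920752 to 79930263). Its level was 53.6 CPM in N1, 32.3 in N3 and 54.0 in N12, against 8.80 in M13, 17.5 in M17 and 6.24 in M24. The PZH rats had 48.6 CPM in G27, 34.9 in G28 and 29.8 in G42. All DEN model rats lay below all other rats, while PZH and normal control rats overlapped. Foxa3 was 4.25-fold lower in the DEN model (log2 fold change -2.09, SE 0.38, edgeR adjusted p = 0.0030). It was 3.56-fold higher under PZH than in the DEN model (log2 fold change 1.83, SE 0.39, edgeR adjusted p = 0.019). Both calls held on library totals, with log2 fold changes of -1.31 and 1.21.

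Foxa1, a pioneer factor that acts with Foxa2 in the first steps of liver development, varied more between rats (chromosome 6, 78545804 to 78549669). It was at 40.1 CPM in N1, 16.2 in N3 and 27.2 in N12, and at 8.75 in M13, 8.91 in M17 and 12.3 in M24. The PZH rats had 42.1 CPM in G27 but 18.2 in G28 and 18.9 in G42. In TMM-scaled CPM the DEN model rats were again the lowest, with G27 standing 2.23-fold over the next PZH rat. In FPKM the DEN model rats overlapped with both other groups. Foxa1 fell in the DEN model by 1.45 on the log2 scale (SE 0.32, edgeR adjusted p = 0.0064) and rose under PZH against the DEN model by 1.43 (SE 0.36, edgeR adjusted p = 0.030). On library totals the values were -0.60 and 0.72 and neither was called. Without G27 the second was 0.91, still called.

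Foxa2, which controls glucose and bile acid genes and is also made in bile duct cells, was not called in any comparison under TMM (chromosome 3, 142383278 to 142387481). Its level was 22.6 CPM in N1, 13.9 in N3 and 15.7 in N12, and 17.7 in M13, 20.8 in M17 and 15.1 in M24. The PZH rats had 48.1 CPM in G27, 20.7 in G28 and 22.2 in G42. In TMM-scaled CPM normal control and DEN model rats overlapped, and G27 was 2.17-fold over the next PZH rat. In FPKM all DEN model rats (10.7 to 11.8) and all PZH rats (8.66 to 18.7) lay above all normal control rats (4.58 to 8.06). The DEN model difference was 0.056 (95% interval -0.46 to 0.58, edgeR adjusted p = 0.86). With library totals it was 0.89 and called higher, about the shift of the median gene. The difference between PZH and the DEN model was 0.80 (95% interval 0.017 to 1.59) and did not pass the test (edgeR adjusted p = 0.14), and without G27 it was 0.29.

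Cebpa, the C/EBP factor that drives gluconeogenic and urea cycle genes and restrains cell division, was called in the same directions as Hnf4a (chromosome 1, 91363492 to 91366164). It was at 398 CPM in N1, 336 in N3 and 352 in N12, and at 103 in M13, 137 in M17 and 92.0 in M24. The PZH rats had 321 CPM in G27, 200.5 in G28 and 275 in G42. In TMM-scaled CPM the 3 groups did not overlap, with PZH again in the middle. In FPKM the PZH and normal control rats overlapped. Cebpa was 3.23-fold lower in the DEN model (log2 fold change -1.69, SE 0.23, edgeR adjusted p = 0.00078) and 2.44-fold higher under PZH than in the DEN model (log2 fold change 1.29, SE 0.26, edgeR adjusted p = 0.017). Both calls held on library totals, with log2 fold changes of -0.86 and 0.64. The difference of PZH from normal control was -0.44 (95% interval -0.94 to 0.060, edgeR adjusted p = 0.34).

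Cebpb, the C/EBP factor of the acute phase response and of liver regeneration, was low in both DEN-treated groups (chromosome 3, 164424515 to 164425910). It stood at 335 CPM in N1, 298 in N3 and 542 in N12, and at 94.6 in M13, 92.4 in M17 and 106 in M24. The PZH rats had 107 CPM in G27, 146 in G28 and 112 in G42. Both DEN-treated groups thus lay far below every normal control rat, and PZH rats lay only just above DEN model rats. In FPKM the PZH and DEN model rats overlapped. Cebpb fell in the DEN model by 1.99 on the log2 scale (SE 0.28, edgeR adjusted p = 0.00089), which is 3.97-fold. In PZH administration against normal control it fell by 1.68 (SE 0.27, edgeR adjusted p = 0.010), and this was called in every alternative at the adjusted p threshold and without each rat in turn. Between PZH and the DEN model the difference was 0.34 (95% interval -0.096 to 0.78, edgeR adjusted p = 0.24), and it turned to -0.33 with library totals.

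Nr1i2, the pregnane X receptor that induces Cyp3a genes, was at 267 CPM in N1, 204 in N3 and 252 in N12 (chromosome 11, 65022100 to 65058545). It was at 58.3 CPM in M13, 116 in M17 and 50.8 in M24, and at 176 in G27, 123 in G28 and 108 in G42. In TMM-scaled CPM all normal control rats lay above all others, and G42 lay below M17. In FPKM G27 (64.9) lay above N3 (63.9). Nr1i2 was 3.17-fold lower in the DEN model (log2 fold change -1.67, SE 0.33, edgeR adjusted p = 0.0040). The difference between PZH and the DEN model was 0.88 (95% interval 0.081 to 1.69, edgeR adjusted p = 0.11), and that between PZH and normal control was -0.82 (95% interval -1.34 to -0.30, edgeR adjusted p = 0.079). DESeq2 called the latter, as did edgeR without G27 (-1.06).

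Nr1i3, the constitutive androstane receptor that induces Cyp2b genes, was the most uneven within normal control (chromosome 13, 89586283 to 89591277). It was at 29.8 CPM in N1, 7.80 in N3 and 31.8 in N12. The DEN model rats had 14.9 CPM in M13, 22.3 in M17 and 10.4 in M24, and the PZH rats 36.3 in G27, 19.3 in G28 and 39.1 in G42. N3 was the lowest of all 9 rats, and the groups overlapped in every comparison. The DEN model difference was -0.53 (95% interval -1.63 to 0.57, edgeR adjusted p = 0.40), it turned to 0.26 with library totals, and without N3 it was -0.94 and called. Against the DEN model PZH rats differed by 1.02 (95% interval 0.22 to 1.82, edgeR adjusted p = 0.075), a difference that DESeq2 called.

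Onecut1 (HNF6), which supports hepatocyte and bile duct development, rested on 1 rat under PZH (chromosome 8, 81766041 to 81793577). It was at 32.6 CPM in N1, 15.4 in N3 and 21.1 in N12, and at 9.52 in M13, 12.5 in M17 and 10.1 in M24. The PZH rats had 47.3 CPM in G27, 11.3 in G28 and 9.05 in G42. G27 was the highest of all rats and 4.17-fold over the next PZH rat, while the other PZH rats lay in or below the DEN model range. Onecut1 was 2.12-fold lower in the DEN model (log2 fold change -1.08, SE 0.28, edgeR adjusted p = 0.013), a call lost with library totals (-0.25) and without M13. Against the DEN model PZH rats differed by 1.12 (95% interval -0.22 to 2.46, edgeR adjusted p = 0.21), and without G27 by -0.051. Against normal control the difference was -0.0083 (edgeR adjusted p = 0.996) and -1.17 without G27.

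**Figure D2:**
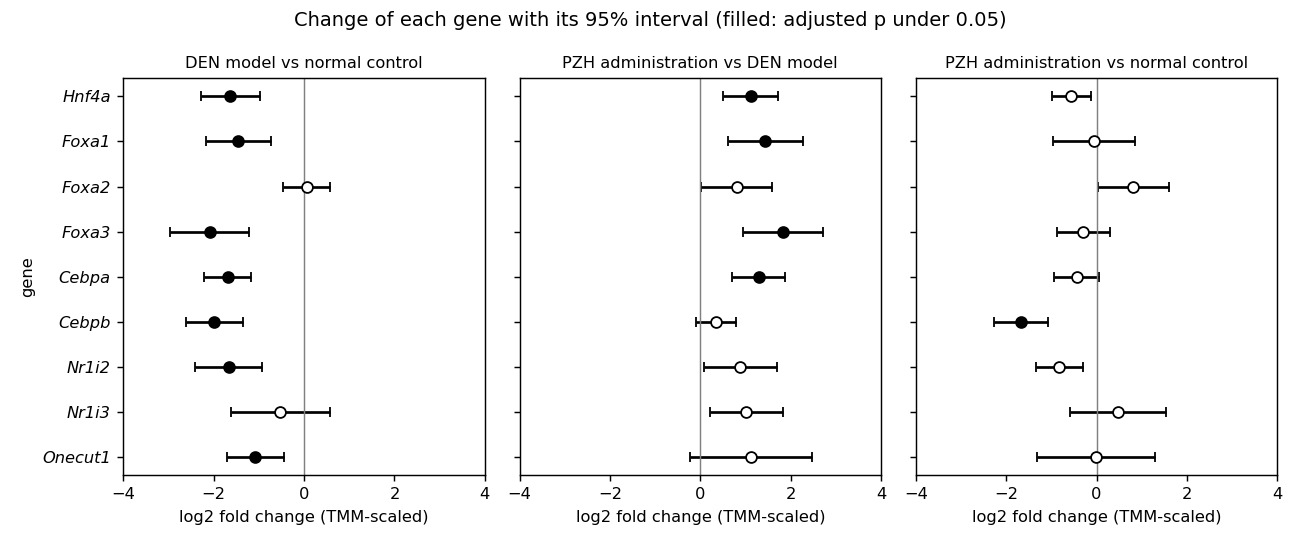
Log2 fold change of each gene in the 3 comparisons, TMM-scaled, with its 95% interval, filled where the edgeR adjusted p is under 0.05. In DEN model against normal control 7 genes are filled and all of these are negative. In PZH administration against DEN model 4 are filled and all positive, and in PZH administration against normal control only Cebpb is filled. Signs hold on library totals except for Nr1i3 in DEN model against normal control (0.26), Cebpb in PZH administration against DEN model (-0.33), and Foxa1 (0.12) and Onecut1 (0.16) in PZH administration against normal control.

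Counted together, 7 of the 9 members fell in the DEN model, where 20.5% of the 14255 genes tested fell and 45.8% were called in either direction. In TMM-scaled CPM the 7 were also the members whose rats did not overlap, against 27.4% of all genes lower without overlap. In FPKM 5 members were lower without overlap (Hnf4a, Foxa3, Cebpa, Cebpb and Nr1i2) and Foxa2 was higher without overlap. The share of all genes without overlap in FPKM was not counted, here and below. The members had a median log2 fold change of -1.64, against 0.029 over all genes. Foxa3 alone passed the stricter thresholds that the study used (log2 change beyond 2 either way with P below 0.001), which 3.49% of all genes passed in the lower direction. On library totals 5 members were called lower (Hnf4a, Foxa3, Cebpa, Cebpb and Nr1i2) and Foxa2 higher.

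Under PZH against the DEN model, 4 of the 9 members rose, where 8.72% of 14272 genes tested rose and 19.1% were called in either direction. The rats of 5 members did not overlap in TMM-scaled CPM, Cebpb being the fifth, against 18.4% of all genes higher without overlap. In FPKM 3 members were higher without overlap (Hnf4a, Foxa3 and Cebpa). All 9 log2 fold changes were positive under TMM, with a median of 1.11 against 0.0053 for all genes, and Cebpb turned negative with library totals. By this edgeR fit 0 of 9 passed the study's thresholds (2.43% of all genes in either direction), at which the study itself reported more genes. By edgeR 7 members had an unadjusted p under 0.05, and DESeq2 called 5 by adjusted p. DESeq2 also called more of the listed genes, such as 16 of 18 Hnf4a targets against 11 by edgeR. With library totals 2 members were called (Foxa3 and Cebpa). Leaving out M13 or leaving out M24 left 0 members called by edgeR, with 271 and 725 genes called over the whole table in place of 2722. In each case 4 members had an unadjusted p under 0.05. Shares of all genes at unadjusted p and by DESeq2 are not given here, so those member counts have no background beside them.

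In PZH administration against normal control, Cebpb was the only member called, where 1.15% of 13348 genes tested were lower and 5.21% were called in either direction. Hnf4a, Cebpa, Cebpb and Nr1i2 were lower without overlap in TMM-scaled CPM, as were 10.6% of all genes. In FPKM only Hnf4a and Cebpb were lower without overlap, and Foxa2 was higher without overlap. DESeq2 called 3 members (Cebpb, Hnf4a and Nr1i2), and edgeR without G27 called 2 (Cebpb and Nr1i2). The comparisons share rats, so the values in them are not independent of one another. A call in one comparison and none in another does not show that they differ, and that difference was not tested.

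**Figure D3:**
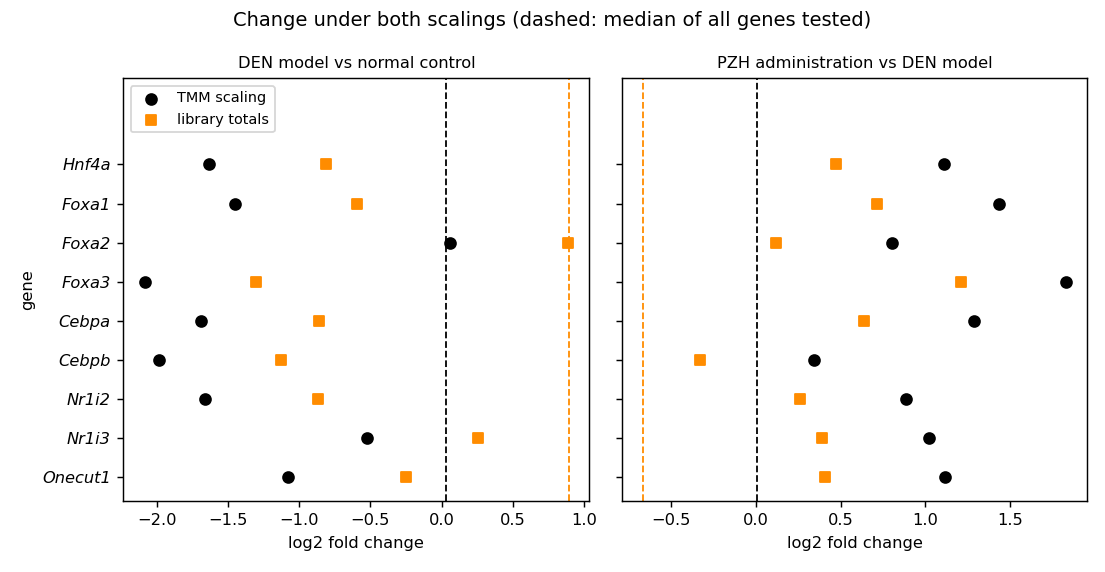
Log2 fold change of each gene under TMM scaling (circles) and library totals (squares) in DEN model against normal control and PZH administration against DEN model, with the median of all genes tested as a dashed line in the same color. All members other than Foxa2 lie left of the median of all genes in the first panel under both scalings, and all 9 lie right of it in the second. Nr1i3 (-0.53 to 0.26) changes sign in the first panel and Cebpb (0.34 to -0.33) in the second.

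Single rats set the spread within groups. N3 had the lowest level in normal control for all 9 members, although its summed hepatocyte markers were the highest of that group (176659 CPM). M17 had the highest level in the DEN model for 7 of 9 members and also the highest hepatocyte marker sum (79648 CPM) and the lowest ductular marker sum (235 CPM). G27, the deepest library, had the highest level under PZH for 7 of 9 members, with the highest hepatocyte marker sum of its group (174924 CPM), but the lowest Cebpb. These are TMM-scaled values, and a rat's members and marker sums share its TMM factor. That factor was the smallest of its group in N3 (0.731), M17 (1.21) and G27 (0.863). In FPKM the highest DEN model rat was M13 for Foxa2 and M24 for Onecut1. The highest PZH rat for Hnf4a was G28. The part of these marker levels in the members' levels was not tested.

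Ratios of 2 members within the same rat do not depend on library scaling. With 3 rats against 3 the exact two-sided permutation test cannot go below 0.1, so no ratio could reach 0.05, and over the 15 tests the smallest adjusted p was 0.21. The ratio of Foxa2 to Foxa3 separated all 3 groups. It was 0.421 in N1, 0.432 in N3 and 0.292 in N12, against 2.01 in M13, 1.19 in M17 and 2.42 in M24, and 0.989 in G27, 0.594 in G28 and 0.747 in G42. Foxa3 counts thus exceeded Foxa2 counts in all normal control rats and in all PZH rats, though barely in G27, and the reverse held in all DEN model rats. The log2 ratio differed by 2.25 between DEN model and normal control, by -1.24 between PZH and DEN model and by 1.02 between PZH and normal control (exact permutation p = 0.1 in each).

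The ratio of Cebpb to Cebpa was 0.843 in N1, 0.886 in N3 and 1.54 in N12, and 0.920 in M13, 0.675 in M17 and 1.15 in M24. It was 0.335 in G27, 0.729 in G28 and 0.408 in G42. The PZH rats were below all normal control rats (log2 difference -1.18, exact permutation p = 0.1) but overlapped with M17 of the DEN model (-0.95, exact permutation p = 0.2). Normal control and DEN model rats overlapped, with a log2 difference of -0.23 (exact permutation p = 0.7).

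The ratio of Nr1i3 to Nr1i2 was 0.112 in N1, 0.0384 in N3 and 0.127 in N12, and was higher in every DEN-treated rat, from 0.193 to 0.256 in the DEN model and from 0.157 to 0.362 under PZH. The log2 difference from normal control was 1.40 in the DEN model and 1.48 under PZH (exact permutation p = 0.1 in each), and the 2 DEN-treated groups overlapped with a difference of 0.074. Onecut1 to Hnf4a was higher in all DEN model rats (0.0343 to 0.0450) than in normal control rats (0.0199 to 0.0338), by 0.64 on the log2 scale (exact permutation p = 0.1). Under PZH this ratio ran from 0.0165 in G42 to 0.0769 in G27 and overlapped with both other groups. Foxa1 to Foxa3 overlapped in all 3 comparisons.

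**Figure D4:**
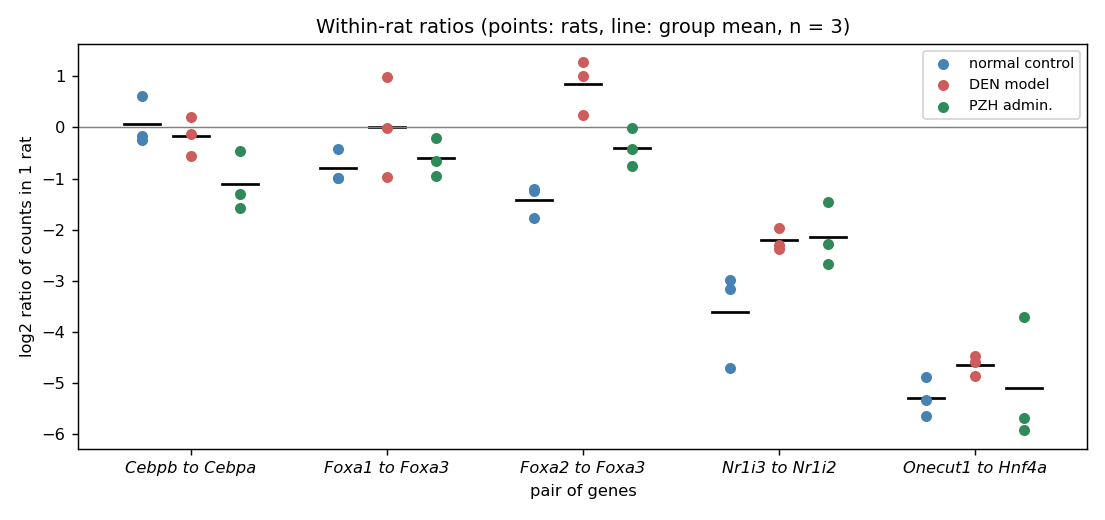
Log2 ratio of the counts of 2 members within each rat. Points are rats colored by group and lines are group means (n = 3). Foxa2 to Foxa3 separates the 3 groups, with means of -1.41 in normal control, 0.84 in DEN model and -0.40 in PZH administration rats, and Cebpb to Cebpa is lowest under PZH, at a mean of -1.11.

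The profile of Hnf4a over the 9 rats was closest to that of Cebpa among the members, with a root-mean-square log2 difference of 0.19 after centring, and then to that of Nr1i2 (0.23). The farthest pair was Foxa2 and Cebpb (1.15). Among 7724 genes with a mean of at least 10 CPM, the nearest to Hnf4a were St3gal1 (0.11) and C2cd2l (0.11), and the nearest to Cebpa were Tmem63b (0.064) and Cdip1 (0.12). Nr1i2 was nearest to Prelid2 (0.12) and Glrx5 (0.14), Foxa3 to Slco2b1 (0.17) and Plg (0.17), and Cebpb to Tsc22d3 (0.23) and Plk3 (0.25). Nr1i3 was nearest to Fam89a (0.16) and Arhgef19 (0.17), Onecut1 to Uqcrb (0.13) and Cltb (0.21), Foxa2 to Birc2 (0.20) and Net1 (0.22), and Foxa1 to Mrpl34 (0.26) and Slc25a30 (0.26). These are descriptions over 9 rats that share the group differences, with no test.

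Of 23 further liver regulators linked to the members, 14 fell and 2 rose in the DEN model, and their median was -0.96 on the log2 scale against 0.029 for all genes. Under PZH against the DEN model 7 rose and 1 fell, with a median of 0.89 against 0.0053 for all genes. On library totals the regulators called became 7 lower and 4 higher in the DEN model, and 2 higher and 5 lower under PZH. Over all genes tested under TMM, 20.5% fell and 25.3% rose in the DEN model. Under PZH against it 8.72% rose and 10.3% fell. Atf5, a stress-linked bZIP factor abundant in liver, went from 836 ± 375 CPM (mean ± SD, n = 3) to 119 ± 41.4 in the DEN model and 435 ± 147 under PZH, with log2 fold changes of -2.79 and 1.89 (edgeR adjusted p = 0.0010 and 0.014). Nr1h4 (FXR), the bile acid receptor, went from 99.9 ± 4.88 CPM to 26.8 ± 8.14 and 57.6 ± 9.25, with log2 fold changes of -1.88 and 1.13 (edgeR adjusted p = 0.00054 and 0.022). Foxo1, which drives gluconeogenic genes, fell by 1.60 and rose by 1.03, and Prox1, a homeobox factor of hepatocytes, fell by 1.46 and rose by 1.10, all by edgeR. Gata6, named after its values were seen, rose in the DEN model (log2 fold change 0.71, edgeR adjusted p = 0.035). Against normal control, Nr0b2 (-1.66) and Nr1h4 (-0.79) were still lower under PZH by edgeR. Under PZH against the DEN model, the regulators called higher by edgeR were at most 2 without M13 or without M24, 3 without G28 and 11 without M17.

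Most listed targets of Hnf4a were called in the same directions as Hnf4a itself. Whether the members regulate the listed targets in these livers was not tested, here and in the lists below. Of 18 targets 14 fell in the DEN model and 0 rose, with a median of -1.77 on the log2 scale. Under PZH against the DEN model 11 rose and 0 fell, with a median of 1.47. Over all genes tested, 20.5% fell in the DEN model and 8.72% rose under PZH against it, with medians of 0.029 and 0.0053. Apoa2, an apolipoprotein of HDL, went from 884 ± 51.9 CPM to 33.1 ± 15.8 and 377 ± 163, with log2 fold changes of -4.72 and 3.54. Ttr, the thyroxine carrier transthyretin, went from 4701 ± 574 CPM to 314 ± 187 and 3482 ± 1933, with log2 fold changes of -3.89 and 3.50. Apoa4 changed by -4.35 and 3.17 and Apoc3, an inhibitor of lipoprotein lipase, by -3.41 and 2.92 on the log2 scale. Against normal control 2 of 18 were still lower under PZH, Cyp8b1 and G6pc, and 7 of 18 were lower when G27 was left out. The targets called higher under PZH against the DEN model were 1 without M13, 4 without M24, 6 without G42, 7 without G28 and 17 without M17.

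Of 11 targets of Foxa factors and Onecut1, 3 were also Hnf4a targets. In the DEN model 8 of the 11 fell and under PZH against it 5 rose, with medians of -2.09 and 1.81. Beside this list and the next, 20.5% of all genes tested fell in the DEN model and 8.72% rose under PZH. Tat, tyrosine aminotransferase, changed by -3.33 and 2.06 and Pck1, the key enzyme of gluconeogenesis, by -2.66 and 1.81. All 6 metabolic C/EBP targets also stand in the Hnf4a or the Foxa and Onecut1 list, so this list adds no further genes. Of these 6, 5 fell and then 4 rose, with medians of -2.38 and 1.67, among them G6pc (-3.19 and 1.53) and Gys2 (-1.52 and 1.14). Under PZH against the DEN model, edgeR called 1 of the 11 without M13, 4 without M24 and 9 without M17. It called at most 1 of the 6 without M13, M24 or G42 and 2 without G28, while the medians without M13 were 1.57 and 1.49. Against normal control Tat was still lower under PZH (log2 fold change -1.31), as was G6pc (-1.69).

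The acute phase targets of the C/EBP factors were less uniform. In the DEN model 4 of 10 fell and 1 rose (2 and 2 with library totals), with a median of -1.43. Of all genes tested, 20.5% fell and 25.3% rose in the DEN model. Crp, C-reactive protein, went from 7922 ± 1494 CPM to 992 ± 815 and 4812 ± 938, so that it fell by 2.98 and rose by 2.30 on the log2 scale, and it was the only one of the 10 called under PZH against the DEN model, where 8.72% of all genes were called higher. The call of Crp was lost without any one of 5 of the 6 rats, and without M17 7 of the 10 were called higher. In the DEN model 8 of the 10 fell without M17 and 2 without any one of the other rats. A2m, alpha-2-macroglobulin, rose from 2.10 ± 0.543 CPM to 49.7 ± 29.1 in the DEN model and was at 87.8 ± 45.5 under PZH, a log2 fold change of 5.38 against normal control (edgeR adjusted p = 0.0021). A2m was named after its values were seen, as the listed gene that rose.

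Of 15 targets of Nr1i2 and Nr1i3 in the table, 9 fell and 3 rose in the DEN model, with a median of -2.07. Under PZH against the DEN model 9 rose, with a median of 2.003 (8 higher and 3 lower with library totals). Of all genes tested, 20.5% fell and 25.3% rose in the DEN model, and 8.72% rose under PZH against it. Cyp3a23/3a1, a main rat Cyp3a enzyme, went from 2050 ± 410 CPM to 9.42 ± 12.7 and 1077 ± 248, with log2 fold changes of -7.76 and 6.87 (edgeR adjusted p = 0.0013 and 0.012). Cyp2c7 changed by -6.32 and 4.28, and was still lower than normal control under PZH by 2.09 (edgeR adjusted p = 0.041). Cyp3a18 changed by -4.36 and 3.94 and the organic anion carrier Slco1a4 by -4.34 and 3.93. The 3 that rose in the DEN model were Abcc3, a basolateral export pump (3.19 ± 0.636 to 97.2 ± 14.0 CPM, log2 fold change 4.94), Cyp3a62 (1.48) and Gsta2 (0.79), named after their values were seen. Abcc3 remained above normal control under PZH, by 4.26 on the log2 scale (edgeR adjusted p = 0.00089). Cyp genes of a family share sequence, so reads could be split between near copies. Without M13, M24 or G28, 4 of the 15 were called under PZH against the DEN model, and without N1 or N12 1 was called higher in the DEN model. Against normal control the lower calls in the regulator and target lists, at most 2 in a list, ran from 0 to 7 without each rat in turn.

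**Figure D5:**
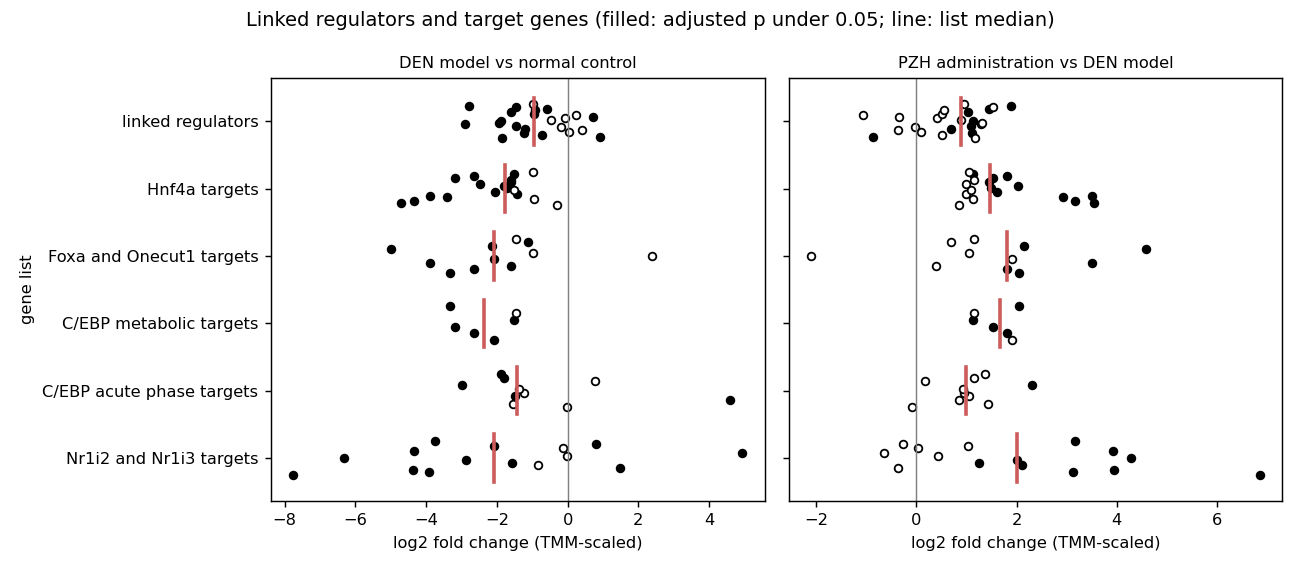
Log2 fold change of each gene of the linked regulators and the 5 target lists in DEN model against normal control and PZH administration against DEN model, TMM-scaled. Filled points have an edgeR adjusted p under 0.05 and the red line is the list median. All 6 medians are negative in the first panel, from -0.96 to -2.38, and positive in the second, from 0.89 to 2.003, and library totals keep these signs. Single genes such as Abcc3 (4.94) and A2m (4.58) lie on the other side.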

How the data were processed

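Liver RNA of 9 rats was sequenced on an Illumina NovaSeq instrument. The authors deposited 1 table whose count columns hold whole reads per gene and rat, not normalized. Its FPKM columns, made by the authors from the same libraries, correct for gene length and depth. They carry no TMM factor. Within a group, the SD of a member as a percentage of its mean matched that on library totals (Hnf4a in normal control, 14.9% in each). Overlap in FPKM is therefore overlap on library totals. The submitters' processing notes name fastp, HISAT2 2.1.0, StringTie 1.3.3b and edgeR 3.30.3, with no role or order, and the genome build is not given in the sources used here. The table's own fold changes, P and Q values, which are the authors' comparisons, were not used.

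Counts were filtered with filterByExpr, scaled with TMM and tested by the quasi-likelihood test of edgeR 4.0.16 in R 4.3.3, on the 6 rats of each comparison with no covariate. A gene was called at a Benjamini-Hochberg adjusted p under 0.05 over all genes tested. The study's thresholds (absolute log2 fold change above 2, P under 0.001) were counted beside it. The study gives no base for its log fold change, and log2 was taken here. In this fit 1753 genes passed in DEN model against normal control and 347 in PZH administration against DEN model. The study reported more in both, so members passing here are those of this fit only. Depth was 14922973 to 27161496 counts per rat, and intervals and floors cover counting error and the spread between rats only as far as 3 rats show it. Within-rat ratios used counts + 0.5 and an exact two-sided permutation test. Alternatives were DESeq2 1.42.0, library totals, other filters (at least 1 count in all, or at least 10 in every rat), 1 fit of all groups, limma 3.58.1 on log2(FPKM + 1) and log2(FPKM + 0.1), and leaving out each rat. The pipeline was tested on simulated counts.

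Members and lists were chosen with earlier results of these data known. The lists were linked regulators, targets of Hnf4a, of Foxa and Onecut1, of C/EBP (metabolic and acute phase) and of Nr1i2 and Nr1i3, and markers of hepatocytes, ductular, stellate, macrophage, lymphocyte, endothelial and gut cells. Named were all members, up to 4 genes of each list with the largest change in DEN model against normal control among those called in both first comparisons, the first 3 markers of a list where a result turns on them, and the 2 nearest profiles of each member. Other genes named where 5 or fewer of a list were called were chosen after their values were seen. Listed symbols with no row of that name (such as Onecut3, Cyp3a2, Cyp2b1 and Pecam1) are not analysed here. Foxa1 and Onecut1 promoters and protein sequences are not analysed here. Single values of 2 listed genes are not reported here.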

Additional observations from a re-analysis of the deposited data

How the results depend on the processing

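No paired analysis was possible because the groups share no rat numbers. In DEN model against normal control, the members called were 6 to 8 without each rat in turn (4724 to 6790 genes in all) and 1 member (1753 genes) at the study's thresholds. In PZH administration against DEN model they were 0 to 5 without each rat (271 to 3319 genes), 2 with library totals (6252 genes), 2 by limma on log2(FPKM + 1) (6089 genes), 2 on log2(FPKM + 0.1) (6147 genes), and 0 (347 genes) at the study's thresholds. In PZH administration against normal control they were 1 to 2 without each rat (207 to 1326 genes), 3 by DESeq2 (1320 genes), 0 (310 genes) at the study's thresholds, and 340 genes were called at 10 or more counts in every rat. Log2 fold changes that turned sign were Nr1i3 in DEN model against normal control (0.26 with library totals, 0.41 and 0.49 by limma on FPKM + 1 and + 0.1), Cebpb in PZH administration against DEN model (-0.33, -0.32 and -0.33), Foxa1 in PZH administration against normal control (0.12, 0.12 and 0.13) and Onecut1 there (0.16 with library totals, 0.033 at 10 or more counts in every rat). Leaving out rats gave -0.082 to 0.26 for Foxa2 in DEN model against normal control, -0.051 to 1.51 for Onecut1 in PZH administration against DEN model, and -0.58 to 0.27 for Foxa1 and -1.17 to 0.36 for Onecut1 in PZH administration against normal control. The log2 ratio differences turned sign without single rats for Cebpb to Cebpa in DEN model against normal control (-0.41 to 0.049), Nr1i3 to Nr1i2 in PZH administration against DEN model (-0.26 to 0.34) and Onecut1 to Hnf4a in PZH administration against normal control (-0.51 to 0.60). Of the members' log2 fold changes under alternatives that keep all rats, 159 kept their direction and side of the threshold, 13 lost a call, 6 gained one and 11 turned sign. Library totals gave 4 of these turned signs and 4 of the lost calls, and each limma setting on FPKM gave 3 and 4. Library totals and FPKM both lack TMM factors, so these settings are not independent alternatives. The cause of the shifts was not tested.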
